A study of Mus musculus with 4 samples.

Results

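Myc and Max network transcription factors were followed in mouse embryonic stem (ES) cells in which Atad2 was knocked down. The network is described here through 9 listed genes, Myc, Mycn, Mycl, Max, Mnt, Mga, Mlx, Mxi1 and Mxd3. They were listed by name as genes of this network, with earlier results of these data known. All 9 had named transcripts, out of 21992 genes in the series with usable named transcripts of at least 200 bases. All 9 were among the 10874 genes that could be tested. The 4 RNA-seq libraries, multiplexed in a single lane, came from 46C ES cells that carry a TAP tag knocked into Atad2 (46C Atad2-tag). Of these, 2 were made after a scrambled siRNA (si-ctrl 1 and si-ctrl 2) and 2 after an siRNA against Atad2 (si-Atad2 1 and si-Atad2 2). All cells carried the tagged allele, from a chosen clone, and all grew with LIF and serum on gelatin, so there is no untagged group here. The labels do not say which active siRNA went into which si-Atad2 library, nor whether replicates were separate transfections. The study's own description mentions different active siRNAs and repeat sequencing of each RNA. The 2 pairs may therefore include repeat runs or different siRNAs. The p-values rest only on the spread between these libraries, pooled across genes, and that spread may be technical.

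Proteins of this network bind DNA as pairs through a basic helix-loop-helix leucine zipper, and most pair with Max. Myc, N-Myc and L-Myc paired with Max activate genes of growth and ribosome production, many through the E-box sequence CACGTG. Mnt, Mxi1 and Mxd3 compete for Max and recruit Sin3 and histone deacetylases, Mga brings Max into the non-canonical Polycomb complex PRC1.6, and Mlx pairs with the glucose-sensing Mondo proteins. In ES cells, Myc and N-Myc are known for supporting growth and self-renewal, and PRC1.6 for keeping germline genes low. Atad2, a bromodomain ATPase of chromatin, has been described in cancer cells as a cofactor of Myc.

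The promoters of these genes are shown first because the proteins of the network bind the E-box and because E2F factors are known regulators of Mycn. RefSeq promoters (GRCm38.p6, 250 bases before to 50 after the start) were matched for 8 of the 9 members, and the one without an entry is Myc. CACGTG, which reads the same on both strands, was present in 3 of the 8, those of Max, Mnt and Mlx, against 7.15% of all 32851 promoters and 12.1% of the 8598 tested genes with a promoter entry. The windows are printed with the match in capitals, 5′ to 3′ on the strand of the gene. That of Max is chr12:76962234-76962263 on the minus strand, that of Mnt chr11:74830789-74830818 on the plus strand and that of Mlx chr11:101087238-101087267 on the plus strand.
Max: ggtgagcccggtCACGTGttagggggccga
Mnt: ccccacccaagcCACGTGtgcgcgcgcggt
Mlx: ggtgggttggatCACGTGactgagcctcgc

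Relative to the annotated start, the first base of the match lay at position -3 for Max, -123 for Mnt and -40 for Mlx. The promoter of Mycn, the network gene with the highest level in these cells, held no CACGTG but 2 matches to TTTGGCGC, an E2F-type motif searched on both strands. They began 183 and 168 bases before the RefSeq start, and 0.514% of all promoters and 1.16% of those of tested genes held at least 1 such match. The GENCODE span of Mycn begins at chr12:12941914, upstream of that RefSeq start, so it takes in part of the window printed here. The 250 bases before the RefSeq start of Mycn are chr12:12941837-12942086 on the minus strand, with both matches in capitals.
Mycn: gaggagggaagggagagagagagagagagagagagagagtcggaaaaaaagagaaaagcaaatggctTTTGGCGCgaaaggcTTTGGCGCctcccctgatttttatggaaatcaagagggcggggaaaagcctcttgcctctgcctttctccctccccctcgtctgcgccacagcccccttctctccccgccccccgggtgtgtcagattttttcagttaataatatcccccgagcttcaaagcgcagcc

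These matches describe the letters in each window only, since binding was not analysed here.

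Levels are given as FPKM, that is fragments divided by transcript length and by library size, summed over the transcripts of a gene. FPKM is per length, so levels of different genes can be set side by side. The authors' tables hold no read counts, and the depth behind each value is therefore unknown. The labels were checked with the targeted gene, which measured 34.13 and 36.01 FPKM in si-ctrl 1 and 2 and 10.11 and 13.03 FPKM in si-Atad2 1 and 2. Atad2 was thus lower in both knockdown libraries, with log2 ratios of -1.66 and -1.40 and an adjusted p of 3.18e-06 by limma. This call was lost without the filter on low values (adjusted p = 0.331) and without si-ctrl 2 (adjusted p = 0.0693). The cells matched their label, since all 10 ES cell markers were above 1 FPKM and summed to 3610 FPKM in both si-ctrl libraries and to 3390 and 3380 FPKM in si-Atad2 1 and 2. Markers of other cell types summed to 9.23 to 10.8 FPKM for fibroblasts, 5.5 to 6.21 for endoderm, 49.5 to 63.5 for neural cells and 25.1 to 34.1 for trophoblast. Of each of these 4 lists of 6 genes, between 2 and 4 genes reached 1 FPKM and none was at 0 in all libraries. The trophoblast sum moved through Tfap2c, which measured 24.23 and 23.91 FPKM in si-ctrl and 15.73 and 19.44 FPKM in si-Atad2 and fell by 0.44 on the log2 scale (adjusted p = 0.0163 by limma, called in 9 of 16 settings tried). The other tested trophoblast markers, Ascl2, Krt7 and Hand1, had mean log2 ratios of -0.05, 0.05 and -0.02. None of these was called, and Krt7 and Hand1 lay close to 1 FPKM. In bulk RNA, fewer cells of a type and less RNA per cell cannot be told apart.

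In control ES cells the network was dominated by Mycn, which encodes N-Myc. Mycn measured 100.7 and 100.2 FPKM in si-ctrl 1 and 2 and ranked above 95.8% of tested genes. Max, the shared partner, followed at 44.57 and 45.68 FPKM, and Mlx, the partner of the Mondo proteins, at 29.70 and 31.38 FPKM. Mga, the scaffold of PRC1.6, measured 23.94 and 24.54 FPKM, and Myc itself 15.86 and 16.23 FPKM. Mnt, a repressor that pairs with Max, was at 13.35 and 13.05 FPKM. The last places were held by Mxi1 (6.857 and 7.283 FPKM) and Mxd3 (5.006 and 5.165 FPKM), both repressors of the Mad family, and by Mycl (5.041 and 4.818 FPKM), which encodes L-Myc. Each neighbouring pair in this order was separated by more than the range of the 2 control libraries, except Mxd3 and Mycl, whose ranges overlapped. The smallest separated step was from Myc to Mnt, at a ratio of 1.22, and the largest from Mycn to Max, at 2.23. The control libraries were scaled in separate runs, so this order is a description.

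**Figure D1:**
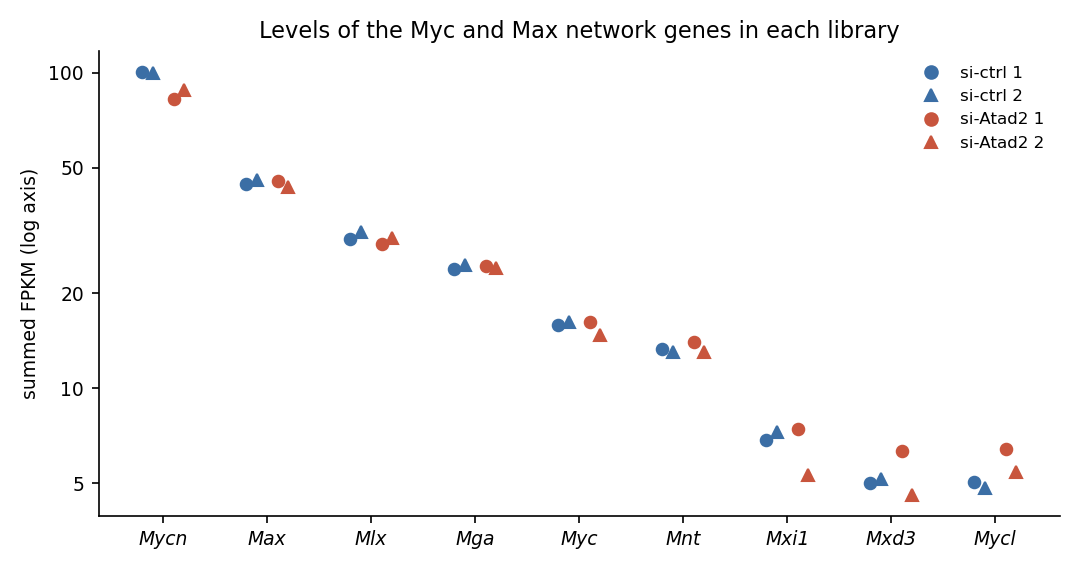
Summed FPKM (log axis) of the 9 network genes in each of the 4 libraries, ordered by their mean in si-ctrl, with circles for replicate 1 and triangles for replicate 2. Mycn sits at 100.2 to 100.7 FPKM in si-ctrl and at 82.49 to 88.51 FPKM in si-Atad2, and Mycl is the member whose si-Atad2 points both lie above its si-ctrl points.

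Among the 3 Myc family genes, Mycn made up 82.8% and 82.6% of the summed FPKM in si-ctrl 1 and 2. Its share was 78.4% and 81.4% in si-Atad2 1 and 2, lower in both. Myc made up 13.0% and 13.4% in si-ctrl and 15.5% and 13.6% in si-Atad2. The share of Mycl was 4.14% and 3.97% in si-ctrl and 6.13% and 5.0% in si-Atad2, though shares of one sum cannot move independently of each other. Relative to Max, the family sum was 273% and 265% in si-ctrl 1 and 2, and 231% and 250% in si-Atad2 1 and 2. Max itself made up 47.6% and 47.7% of the sum of Max and the 4 genes Mnt, Mga, Mxi1 and Mxd3 in si-ctrl, and 46.6% and 48.1% in si-Atad2. These shares were not tested.

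The main comparison asked whether the network genes differed in level on Atad2 knockdown. It used the log2 ratio within each replicate pair, with si-ctrl as the denominator and 1 FPKM added to each level, so changes of low genes are understated. In limma, 0 of the 9 members passed an adjusted p of 0.05, and 2 of them, Mycn and Mycl, had an unadjusted p under 0.05, as did 16.1% of all 10874 genes tested. Of all genes tested, 2.13% passed the adjusted threshold, 1.65% as higher and 0.487% as lower in si-Atad2. An exact permutation test of 2 libraries against 2 could not give a p-value below 0.333. The members' median log2 ratio was -0.02, beside -0.01 for all genes tested.

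Mycn measured 100.7 and 100.2 FPKM in si-ctrl 1 and 2 and 82.49 and 88.51 FPKM in si-Atad2 1 and 2. Both knockdown libraries were below both controls, and the si-ctrl libraries lay closer together than the si-Atad2 libraries did. The log2 ratios were -0.29 and -0.18, with a mean of -0.23 (SE 0.061, 95% interval -0.36 to -0.10, n = 2 pairs). The adjusted p by limma was 0.0797, which missed the threshold. Groups that do not overlap with si-Atad2 lower were found for 26.8% of all genes tested. Mycn also belongs to the highly transcribed genes, which as a class were slightly lower in si-Atad2 on the FPKM scale. The median log2 ratio was -0.06 over the 1184 genes at 50 FPKM or more, of which 43.8% had the knockdown libraries below both controls. It was 0.02 over the 5536 genes under 10 FPKM. The part of level in the value of Mycn was not tested.

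Mycl measured 5.041 and 4.818 FPKM in si-ctrl 1 and 2 and 6.444 and 5.437 FPKM in si-Atad2 1 and 2. Here both knockdown libraries were above both controls. The log2 ratios were 0.30 and 0.15, with a mean of 0.22 (SE 0.081, 95% interval 0.05 to 0.40, n = 2 pairs) and an adjusted p of 0.195 by limma. Groups that do not overlap with si-Atad2 higher were found for 22.3% of all genes tested.

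Myc measured 15.86 and 16.23 FPKM in si-ctrl 1 and 2 and 16.26 and 14.78 FPKM in si-Atad2 1 and 2. The groups overlapped, and the pairs moved in opposite directions, with log2 ratios of 0.03 and -0.13. Their mean was -0.05 (SE 0.072), with a 95% interval of -0.20 to 0.11 and an adjusted p of 0.808 by limma.

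Max measured 44.57 and 45.68 FPKM in si-ctrl 1 and 2 and 45.50 and 43.46 FPKM in si-Atad2 1 and 2. Its groups overlapped, and the mean log2 ratio was -0.02 (95% interval -0.16 to 0.12). Mlx measured 29.70 and 31.38 FPKM in si-ctrl and 28.59 and 29.98 FPKM in si-Atad2. It was lower within both pairs, by log2 ratios of -0.05 and -0.06, while its groups still overlapped (95% interval of the mean -0.20 to 0.08). For Mga, the 4 libraries spanned 23.94 to 24.54 FPKM, the narrowest relative range of the network, with a mean log2 ratio of -0.003 (95% interval -0.15 to 0.14). Mnt spanned 12.99 to 13.98 FPKM, with a mean log2 ratio of 0.03 (95% interval -0.13 to 0.18). The adjusted p of these 4 genes lay between 0.71 and 0.99 by limma.

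The Mad family repressors were the members on which the si-Atad2 libraries differed most from each other. Mxi1 measured 6.857 and 7.283 FPKM in si-ctrl 1 and 2 and 7.428 and 5.309 FPKM in si-Atad2 1 and 2. It was the highest of the 4 values in si-Atad2 1 and the lowest in si-Atad2 2, and the log2 ratios were 0.10 and -0.39. Mxd3, which is known for its expression in proliferating cells, measured 5.006 and 5.165 FPKM in si-ctrl and 6.325 and 4.605 FPKM in si-Atad2. Its pattern was alike, with log2 ratios of 0.29 and -0.14. The mean log2 ratios were -0.15 (95% interval -0.38 to 0.08) for Mxi1 and 0.07 (95% interval -0.14 to 0.29) for Mxd3, and the adjusted p values were 0.542 and 0.771 by limma. Since limma pools variance across genes, the interval of Mxi1 lay within its own pair ratios. On the log2 scale the step from si-Atad2 1 to si-Atad2 2 was -0.42 for Mxi1 and -0.39 for Mxd3, against 0.08 and 0.04 from si-ctrl 1 to si-ctrl 2. Which siRNA was used cannot be told apart from the replicate number in these steps.

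**Figure D2:**
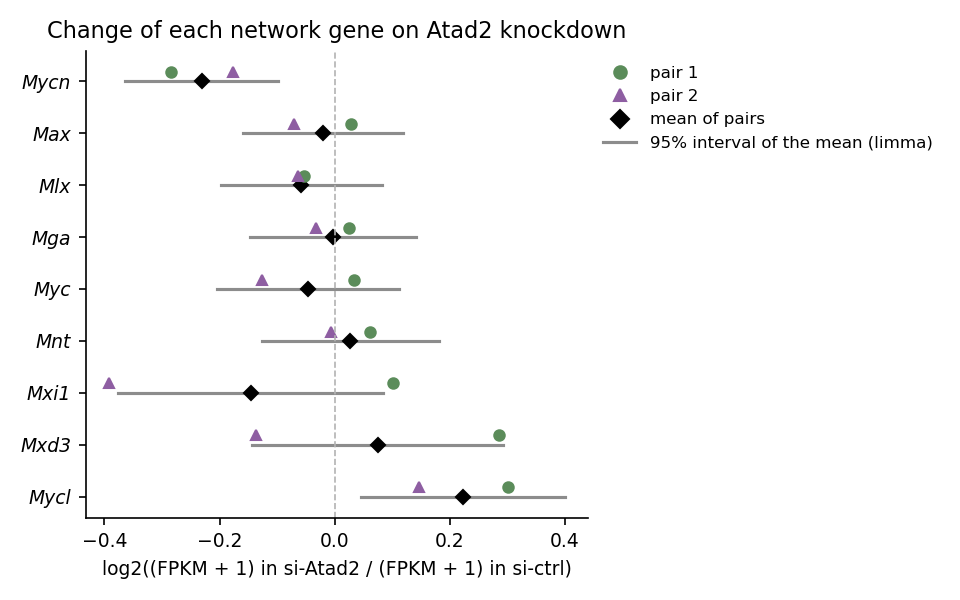
Within-pair log2 ratio, si-Atad2 over si-ctrl after adding 1 FPKM, of each network gene in pair 1 (circles) and pair 2 (triangles), with the mean (diamonds) and its 95% interval from limma (bars). The intervals of Mycn (-0.36 to -0.10) and Mycl (0.05 to 0.40) leave out 0, although neither gene passed the adjusted threshold, and the pairs of Mxi1 and Mxd3 lie on opposite sides of 0.

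Leaving out a library moved these calls. With si-Atad2 2 left out, Mycn (log2 ratio -0.28, adjusted p = 0.00132), Mycl (0.33, 0.000544) and Mxd3 (0.27, 0.00685) passed the threshold in limma, as did 18.9% of all genes tested. With si-Atad2 1 left out, Mxi1 passed (-0.35, 0.000264), as did 7.07% of all genes tested. These fits compare a single si-Atad2 library with both si-ctrl libraries, and assume that the lone library varies like the si-ctrl libraries.

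The transcripts behind the sums are shown because its forms differed in their ratios. Mycn lies at chr12:12936093-12941914 on the minus strand (GRCm38). Its longer row, uc007nbg.2 (2596 bases), reaches the upstream first exon and took 83.0% and 81.6% of the Mycn level in si-ctrl 1 and 2. The other, uc007nbf.1 (2525 bases), has within 3 bases the length of a GENCODE transcript at chr12:12936096-12940616, which starts downstream. In the annotation, that transcript and the one over the whole Mycn span are both protein-coding. Their coding exons were not compared here. The downstream form measured 17.17 and 18.47 FPKM in si-ctrl 1 and 2 and 10.37 and 10.96 FPKM in si-Atad2 1 and 2. Both knockdown libraries were below both controls, though the share of all transcripts with such groups was not counted. The deposited 95% intervals of si-Atad2 (9.325 to 11.42 and 9.868 to 12.05 FPKM) lay below those of si-ctrl (15.93 to 18.41 and 17.12 to 19.82 FPKM). These intervals come from runs with 1 library per condition and so hold no spread between libraries. The log2 ratios of the downstream form were close to each other, at -0.68 and -0.70. Its share of the Mycn level went from 17.0% and 18.4% to 12.6% and 12.4%. The upstream form measured 83.56 and 81.73 FPKM in si-ctrl and 72.11 and 77.55 FPKM in si-Atad2, with log2 ratios of -0.21 and -0.07.

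When single transcripts were tested instead of sums, a comparison added after the data had been seen, the downstream form had an unadjusted p of 0.000289 and an adjusted p of 0.274 by limma. The upstream form had an adjusted p of 0.537. Over 17545 transcripts tested, 0 passed (0.0%), while 1745 had an unadjusted p under 0.05. The difference between both forms was not tested, and the split of fragments between overlapping transcripts is an estimate of Cuffdiff.

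For Myc (chr15:61985391-61990374, plus strand), the main transcript uc007vyg.1 measured 10.07 and 10.29 FPKM in si-ctrl 1 and 2 and 9.431 and 8.117 FPKM in si-Atad2 1 and 2. It was lower in both knockdown libraries. The shorter uc007vyi.1 measured 3.601 and 2.588 FPKM in si-ctrl and 4.130 and 3.970 FPKM in si-Atad2, higher in both. These opposite differences lie within a sum that overlapped between groups. Neither transcript passed in the test of single transcripts (adjusted p of 0.564 for uc007vyg.1 and 0.506 for uc007vyi.1 by limma). Max was made mostly of uc007nyx.2, Mga of uc008luu.1 and Mlx of uc007lnf.2. Mxi1 was the member without any transcript named by length. Its 4 transcripts were named only as those of the one coding gene long enough at the locus, so their assignment is less certain. With naming by length only, Mxi1 had no value. For Mxi1, the main form uc008hwq.1 measured 4.699 and 5.091 FPKM in si-ctrl and 4.251 and 3.576 FPKM in si-Atad2. The form uc008hwo.1 was highest in si-Atad2 1 and lowest in si-Atad2 2, with 1.853 and 1.806 FPKM in si-ctrl and 2.716 and 1.343 FPKM in si-Atad2.

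**Figure D3:**
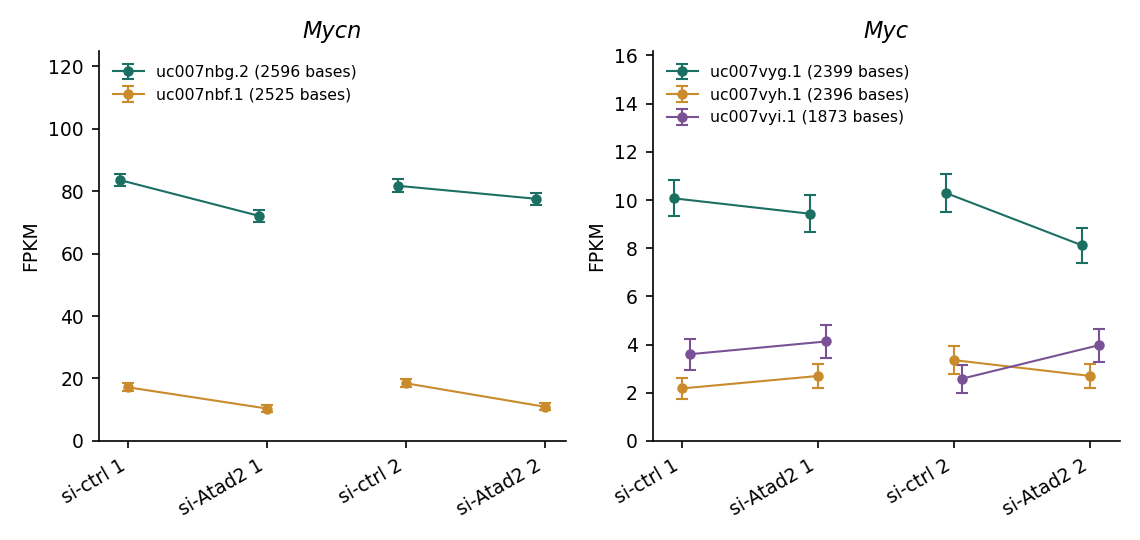
FPKM of the transcripts of Mycn (left) and Myc (right) in each library, with the deposited 95% intervals as bars and lines joining the libraries of a pair. The bars hold no spread between libraries. The shorter Mycn form lies at 17.17 (si-ctrl) and 10.37 FPKM (si-Atad2) in pair 1 and at 18.47 and 10.96 FPKM in pair 2, and the main Myc form is lower in both pairs while uc007vyi.1 is higher in both.

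Some members overlap other genes in position, and the use of strand in the authors' counting is not stated. In GENCODE, the gene span of Mlx (chr11:101087277-101092207) overlaps Psmc3ip on the opposite strand over 385 bases. That of Mxd3 (chr13:55325168-55329823) overlaps Prelid1 on the opposite strand over 105 bases. The span of Mxi1 (chr19:53310518-53375810) overlaps AC133451.2 over 5146 bases and Gm10197 over 201 bases, both on the opposite strand. That of Max (chr12:76937269-76962201) overlaps Gm47218 over 1319 bases of the same strand. These overlaps were taken over gene spans, introns included, so exons in common are not shown. At the locus of Mlx, 2 rows of 22.97 to 24.83 FPKM in sum had no name, and at that of Mxd3 1 row of 108.0 to 112.9 FPKM, and these are not in the sums. The values of these 4 members are uncertain to that extent. No such overlap was found for Myc, Mycn, Mycl (chr4:122995652-123002485), Mnt (chr11:74830920-74845725) or Mga (chr2:119897228-119969581).

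Genes whose pattern over both pair ratios was nearest to that of Mycn, among 551 tested genes within 1.5 times its control level, were Pold2 (log2 ratios -0.27 and -0.17), Rrp9 (-0.27 and -0.14) and Slc20a1 (-0.25 and -0.17). Those nearest to Myc, among 2387 such genes, were Stx7 (0.04 and -0.13), Fastkd2 (0.04 and -0.14) and Hacd3 (0.03 and -0.11). The likeness is a Euclidean distance over 2 values, and many genes lie near each point.

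The other genes of the pathway were taken from 11 lists of partners, regulators and targets. Unnamed transcripts were looked for only at the loci of the members and Atad2, so levels of listed genes may be partial sums. Of 137 genes, 127 had named rows and 120 were tested. Of these, 1 passed as higher in si-Atad2, Ctnnb1, and 1 as lower, Cdkn1c, beside 1.65% and 0.487% of all genes tested. Of all genes tested, 33.9% were below 0 and 28.6% above 0 in both pairs. On the mean log2 ratio, 5775 of the 10874 genes tested were below 0 and 5099 above 0.

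Among further network genes, Mxd4, a Mad family repressor, measured 4.793 and 3.642 FPKM in si-ctrl 1 and 2 and 5.913 and 4.996 FPKM in si-Atad2 1 and 2. It was higher in both pairs, with log2 ratios of 0.26 and 0.37, and had an adjusted p of 0.074 by limma. Mlxipl, which encodes the Mondo protein ChREBP, had log2 ratios of -0.20 and 0.06. None of the 4 genes of this group passed.

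Among cofactors that Myc binds, 0 of 11 tested genes passed and the median log2 ratio was -0.04. Trrap, the scaffold that Myc recruits with histone acetyltransferases, measured 17.10 and 16.74 FPKM in si-ctrl and 20.33 and 20.52 FPKM in si-Atad2 (adjusted p = 0.0782 by limma). Both knockdown libraries were above both controls. Wdr5, a chromatin partner of Myc, was at 64.14 and 64.18 FPKM in si-ctrl but at 34.39 and 80.99 FPKM in si-Atad2, on opposite sides of the controls. Among 11 enzymes of Myc turnover, none passed. Aurka, a kinase known for stabilising N-Myc, measured 44.32 and 44.23 FPKM in si-ctrl and 49.80 and 55.81 FPKM in si-Atad2 (adjusted p = 0.0832 by limma).

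Of 9 tested factors that act on the Myc gene or its mRNA, 1 passed. Ctnnb1, which encodes β-catenin, the Wnt effector that activates Myc in many cells, measured 224.9 and 234.9 FPKM in si-ctrl 1 and 2 and 288.8 and 281.7 FPKM in si-Atad2 1 and 2. It rose with log2 ratios of 0.36 and 0.26 and an adjusted p of 0.0187 by limma. It was called in 9 of 16 settings tried, so the call depended on the processing.

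Corepressor and PRC1.6 partners of the network mostly had log2 ratios below 0. Of 12 tested genes of Sin3 and NCoR complexes, 10 had a mean log2 ratio below 0 and 7 were below 0 in both pairs (58.3%), with a median of -0.07 and none called. Sap30, a Sin3 subunit, stood on the other side, with 52.92 and 53.61 FPKM in si-ctrl and 61.15 and 60.30 FPKM in si-Atad2 (adjusted p = 0.153 by limma), whereas Sap18 had log2 ratios of -0.12 and -0.16. Of 7 tested PRC1.6 partners of Mga, 6 were below 0 in both pairs (85.7%), with a median of -0.09 and none called. Ring1, an E3 ligase of the complex, measured 3.218 and 3.282 FPKM in si-ctrl and 2.121 and 2.821 FPKM in si-Atad2 (adjusted p = 0.129 by limma). The rows named for L3mbtl2 and Rnf2 were at 0.709 to 1.12 and 0.1326 to 0.4442 FPKM and were not tested. These levels may be partial sums, since transcripts without a name are left out, so they do not show that the genes were nearly silent. E2f6, a DNA-binding subunit, had log2 ratios of 0.10 and -0.05. Mga and Max, both in the same complex, had mean log2 ratios of -0.003 and -0.02. The median control level was 26.4 FPKM for the corepressors and 10.8 FPKM for the PRC1.6 partners. Over all tested genes at 10 to 50 FPKM, the median log2 ratio was -0.02, and the part of level was not tested.

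Germline genes known to be held down by PRC1.6 lay on the other side of 0. Of 10 tested, 9 had a mean log2 ratio above 0 and 7 were above 0 in both pairs (70.0%), with a median of 0.09. None passed the test. Mael, of the piRNA pathway, measured 15.21 and 16.45 FPKM in si-ctrl and 21.61 and 17.29 FPKM in si-Atad2 (adjusted p = 0.156 by limma). Smc1b, a meiotic cohesin subunit, was the exception, with log2 ratios of 0.06 and -0.25. In 4 of the 10 both knockdown libraries were above both controls, beside 22.3% of all genes tested. These genes had a median control level of 7.12 FPKM, and of all tested genes under 10 FPKM 28.1% had both knockdown libraries above both controls, with a median log2 ratio of 0.02. The part of level was not tested. Promoters of 7 of the 10 held CACGTG, against 12.1% of tested genes, and 2 of them are printed as above because they show the E-box in the promoters of germline genes. The window of Mael is chr1:166238950-166238979 on the minus strand and that of Stag3, which encodes a meiotic cohesin subunit, is chr5:138280327-138280356 on the plus strand.
Mael: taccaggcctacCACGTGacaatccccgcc
Stag3: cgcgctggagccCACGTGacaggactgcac

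Stag3 was chosen for its window after its values were seen, and measured 11.09 and 11.59 FPKM in si-ctrl and 14.45 and 13.33 FPKM in si-Atad2. Both knockdown libraries were above both controls.

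Targets that Myc activates had small log2 ratios, mostly below 0, and none was called. Of 23 tested genes of ribosome biogenesis, 22 had a mean log2 ratio below 0, 15 were below 0 in both pairs (65.2%), and the median was -0.08. In 12 of them both knockdown libraries were below both controls, beside 26.8% of all genes tested. Rrp9, a processing factor of ribosomal RNA, measured 91.74 and 86.50 FPKM in si-ctrl and 75.86 and 78.18 FPKM in si-Atad2 (adjusted p = 0.118 by limma), and Nop58, of the box C/D particle, had log2 ratios of 0.09 and -0.002. Of 21 tested genes of metabolism and the cell cycle, 18 were below 0 on the mean, 15 in both pairs (71.4%), with a median of -0.09. Ccnd1, which encodes cyclin D1, measured 46.18 and 45.08 FPKM in si-ctrl and 27.76 and 41.80 FPKM in si-Atad2 (adjusted p = 0.0826 by limma), so the knockdown libraries differed from each other more than the controls did. Hk2, a hexokinase, had log2 ratios of 0.21 and -0.04. These targets were mostly highly expressed, with a median control level of 65.7 FPKM for the ribosome list and 87.8 FPKM for the metabolism list. The values given above for all genes at 50 FPKM or more, a median of -0.06 with 43.8% lower in both knockdown libraries, belong beside them, and the part of level was not tested. After rescaling each library to a common total (TPM), the medians were -0.04 for the ribosome list and -0.05 for the metabolism list. The median of all genes tested was then 0.03. The 10 ES cell markers, at a median of 272 FPKM in si-ctrl, had a median log2 ratio of -0.10, with 8 of 10 below 0 in both pairs and none called, from Nanog (-0.42 and -0.09) to Tdgf1 (0.21 and -0.03).

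Of 8 tested genes that Myc represses, 6 had a mean log2 ratio below 0, with a median of -0.05, and 1 passed. This was Cdkn1c, which encodes the cyclin-dependent kinase inhibitor p57. It measured 22.37 and 21.08 FPKM in si-ctrl 1 and 2 and 18.25 and 16.87 FPKM in si-Atad2 1 and 2, and fell with log2 ratios of -0.28 and -0.31 and an adjusted p of 0.0477 by limma. It was called in 7 of 16 settings tried. Its relative Cdkn1b, which encodes p27, measured 17.58 and 19.85 FPKM in si-ctrl and 26.95 and 22.10 FPKM in si-Atad2, above both controls, with an adjusted p of 0.0693 by limma.

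Targets of Mlx and its Mondo partners were higher in both knockdown libraries for 4 of 4 tested genes, with a median log2 ratio of 0.20 and none called, beside 22.3% of all genes tested. Txnip, an inhibitor of glucose uptake and a classic target of these pairs, measured 122.8 and 122.7 FPKM in si-ctrl and 171.3 and 130.2 FPKM in si-Atad2 (adjusted p = 0.11 by limma). Arrdc4, a relative of Txnip and the gene with the lowest mean log2 ratio of the 4 (0.10), measured 28.84 and 26.75 FPKM in si-ctrl and 30.12 and 29.77 FPKM in si-Atad2. Mlx itself had log2 ratios of -0.05 and -0.06.

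**Figure D4:**
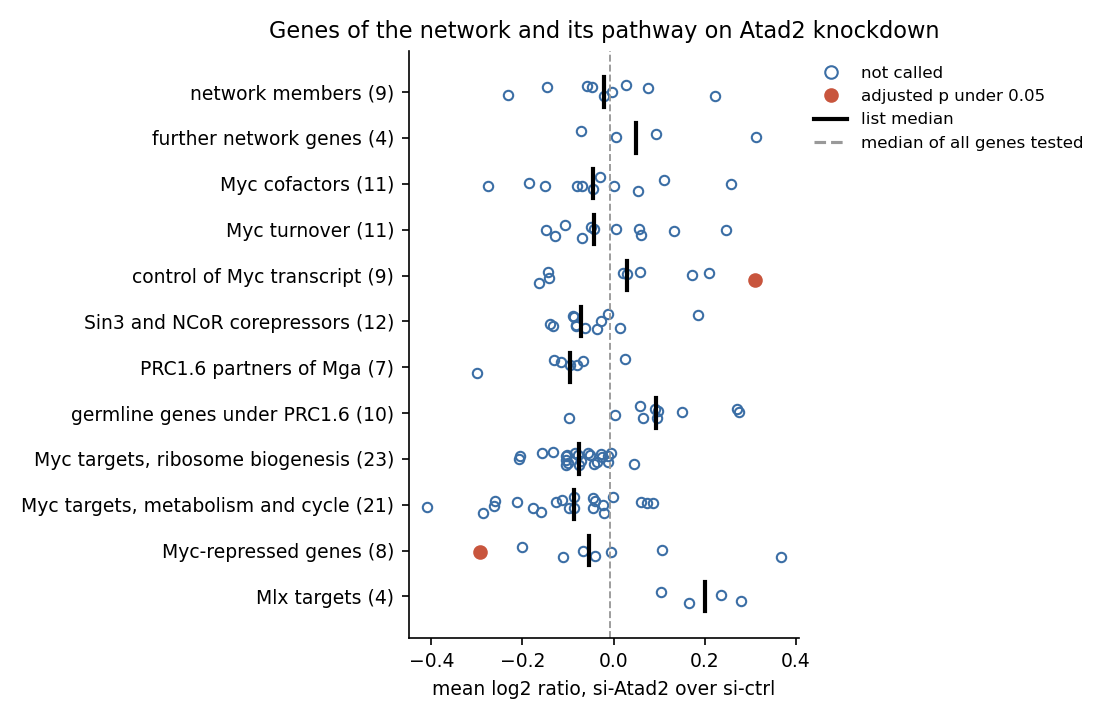
Mean log2 ratio of si-Atad2 over si-ctrl for each tested gene of the members and of 11 pathway lists, with the number tested in brackets, black bars for list medians and a dashed line at the median of all genes tested (-0.01). The filled points are Ctnnb1 and Cdkn1c, and the medians run from -0.09 for PRC1.6 partners and Myc targets of metabolism and cycle to 0.20 for Mlx targets.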

How the data were processed

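The RNA-seq data comprised 2 si-ctrl and 2 si-Atad2 libraries of 46C ES cells with TAP-tagged Atad2, grouped by the sample labels. The authors ran Cuffdiff separately on each same-numbered pair and deposited FPKM per transcript with a 95% interval. Their fold changes, p and q values were not used. The submitters' processing notes name TopHat, Cuffdiff and mm9, whereas the loci in the tables fit GRCm38, whose coordinates are used here.

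The 59120 transcripts were named from GENCODE M21, by length within 3 bases (14840), by length after moving outer ends to the locus edge (12296), as the only coding gene of the locus (18791) or the only one long enough (715). The other 12478 have no name. FPKM of transcripts of at least 200 bases that Cuffdiff marked OK in every library were summed per gene. The 720 transcripts not so marked were left out, so some sums may be partial. A gene was tested where the mean of its sum reached 1 FPKM. The test was limma 3.58.1 (R 4.3.3) on within-run log2 ratios (pseudocount 1 FPKM), a trend on the mean level and Benjamini-Hochberg adjustment over all genes tested (threshold 0.05). The run thus enters as the replicate block. In limma, the variance of each gene was moderated toward that of genes at a like level. The SE, intervals and p-values thus rest largely on other genes. The script was tested on simulated data. No count model was used, since depth is unknown.

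The members and gene lists were chosen with earlier results of these data known. Genes named are the members, the genes of each list past the threshold or else those with its highest and lowest ratio, and the 3 nearest to Myc and Mycn. Some genes that this rule names are not reported here. Any other was chosen after its values were seen. Alternatives covered pseudocounts, TPM and median-of-ratios scaling, filters, GC content, naming, the block, the trend, the threshold and each library left out.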

Additional observations from a re-analysis of the deposited data

How the results depend on the processing

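Over 11 settings that kept all 4 libraries, 95 of 98 member values kept their direction and side of the threshold, and 0 were called at an adjusted p of 0.05. The exceptions were the log2 ratios of Max (0.0134) and Mga (0.0311) after rescaling to TPM and of Mga (0.024) with naming by length only. Rescaling to TPM moved the median of all genes from -0.01 to 0.03. The adjusted p of Mycn ranged from 0.0581 to 0.468 over these fits and the reported one. At a threshold of 0.1, 1 member (Mycn), 9 listed genes and 470 genes passed.

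Counts depended on the settings more than values did. Beside 232 genes in the reported fit (179 higher, 53 lower), 21 passed with transcripts of all lengths, 79 with the GC trend removed, 63 with naming by length only and 0 (1883 at an unadjusted p under 0.05) without a filter on low values. Rescaling to TPM gave 239 higher and 43 lower, and median of ratios 199 higher and 97 lower. The same count was 304 with a pseudocount of 5 FPKM. Without the replicate block 135 genes passed and 1 listed gene, Ctnnb1, with 0 members. The deviations of same-numbered libraries had a correlation of -0.0348, so the pairing rests on the Cuffdiff runs and not on shared deviations. Listed genes called, 2 in the reported fit, were 4 with a pseudocount of 5 FPKM, 1 after TPM and 0 without a filter, without a trend, with all lengths, with the GC trend removed or with naming by length only.

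Leaving out 1 library gave 0 (without si-ctrl 2) to 2054 (without si-Atad2 2) genes, with 5 and 769 for the others, 0 to 31 listed genes and 0 to 3 members. Over fits without 1 library and the single ratios left without 1 whole pair, log2 ratios ranged from -0.127 to 0.0341 for Myc, -0.29 to -0.18 for Mycn, 0.12 to 0.33 for Mycl, -0.0703 to 0.029 for Max, -0.0216 to 0.0765 for Mnt, -0.0315 to 0.0255 for Mga, -0.10 to -0.02 for Mlx, -0.39 to 0.10 for Mxi1, -0.14 to 0.29 for Mxd3 and -1.70 to -1.36 for Atad2. Atad2 had a log2 ratio of -1.53 without a filter (adjusted p = 0.331) and -1.49 without si-ctrl 2. With 1 pair left, no test was possible. The causes of these differences were not tested. With 2 libraries per condition and no counts, a member whose interval includes 0 may still have changed by an amount within it.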
